A study of Mus musculus with 24 samples.

Results

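ATF4 is the transcription factor at the centre of the integrated stress response, and 10 genes of its pathway were followed here in mouse liver: Atf4 itself, its relatives Atf5 and Atf3, the stress factor Ddit3, the feedback and effector genes Trib3, Sesn2 and Chac1, and the amino acid synthesis genes Asns, Psat1 and Phgdh. A gene was a member if the array named a non-control probe after it, and each was read from its probe with the highest mean signal. The 10 members were among 37325 gene symbols on the array, and all 10 were among the 21495 genes bright enough to test. Liver RNA from 24 male mice, aged 12 weeks and killed at ZT16 (16 h after lights on), was read on 1 array per mouse, with 6 mice in each of 4 groups. p110aLWT mice carried floxed Pik3ca alleles without Cre recombinase and were littermates of p110aLKO mice, in which Cre under the albumin promoter deletes part of Pik3ca, the gene for the insulin-responsive kinase subunit p110alpha. Both lines had a C57BL/6J background, both carried the floxed alleles, and the controls lacked the transgene, so an effect of Cre and one of the deletion cannot be told apart. The p110aLWT_Fed and p110aLKO_Fed mice ate freely, while the p110aLWT_Fasted and p110aLKO_Fasted mice went 24 h without food.

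Kinases that sense missing amino acids, unfolded protein in the endoplasmic reticulum (ER), haem shortage or double-stranded RNA all phosphorylate the translation factor eIF2alpha. General translation then slows, whereas the Atf4 and Atf5 messages are translated more, so that ATF4 protein can rise without a rise of its mRNA. ATF4 pairs with C/EBP proteins on composite DNA elements and switches on genes of amino acid supply, of stress output and of feedback, and in liver this programme is known from amino acid shortage and from ER and mitochondrial stress.

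The composite C/EBP-ATF element was searched for as TGATGNAA on both strands of RefSeq promoter windows (GRCm38.p6, from 250 bases before to 50 bases after a start). It was present in 4 of the 12 windows of the 10 members, belonging to Asns, Atf3, Chac1 and Trib3, and in 3.97% of all 32851 windows. The 4 matches are printed 5′ to 3′ on the strand of the gene because they are the stretches of these promoters that carry the letters ATF4 is known to bind, and capitals mark the match.
Asns, chr6:7693214-7693243, minus strand: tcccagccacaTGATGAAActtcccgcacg
Atf3, chr1:191183425-191183454, minus strand: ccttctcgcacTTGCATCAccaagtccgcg
Chac1, chr2:119351038-119351067, plus strand: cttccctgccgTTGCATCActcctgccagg
Trib3, chr2:152344028-152344057, minus strand: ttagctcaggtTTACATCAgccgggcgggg
The Asns match lay at -23 to -16 relative to the start and in the orientation of the gene. The other 3 read on the opposite strand, at -110 to -103 in Atf3, at -193 to -186 in Chac1 and at 14 to 21 in Trib3. The cyclic AMP response element TGACGTCA, which occurred in 1.79% of windows, had no match in the 12 member windows. A match is a description of letters and not a measured binding site.

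Levels below are normalized log2 signals, in which 1 unit is a doubling, and they are compared between mice for the same probe only. To be called, a gene needed an adjusted p of no more than 0.05 together with a change of over 1.5-fold, up or down. Per array, 54.7% to 63.0% of spots exceeded background clearly, and all 10 members were above it on each of the 24 arrays. On the second principal component, which held 13.6% of the variance, p110aLKO_Fasted replicates 1 and 2 stood at 35.06 and 31.25, whereas the other 4 arrays of that group stood between 1.4 and 2.92. The p110aLKO_Fed arrays stood between 19.14 and 28.97, and the p110aLWT arrays of both feeding states between -26.98 and -15.19. Replicates 1 and 2 of p110aLKO_Fasted had 61.8% and 63.0% of spots clearly above background, and the other 4 arrays of this group 57.3% to 58.6%. Results of called members that rest on this group are therefore also given without both arrays, as are differences that pass or lose the test that way, an alternative chosen after seeing the data. The probe for Pik3ca read 1.49-fold higher in p110aLKO_Fed than in p110aLWT_Fed (log2 difference 0.58, SE 0.114, adjusted p = 0.00155) and differed by -0.02 between the fasted genotypes (adjusted p = 0.931). Its place relative to the deleted part was not examined, so it does not check the genotype labels.

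After the 24 h fast Trib3, Sesn2 and Chac1 rose in p110aLWT livers, and Atf5 and Trib3 rose in p110aLKO livers. Atf5 was 1.49-fold higher in fasted p110aLWT livers and 2.68-fold higher in fasted p110aLKO livers, and the difference between these responses itself passed the test. Atf4 mRNA rose in neither genotype. In p110aLWT, 3 of the 10 members were called higher and 0 lower, against 9.97% of all tested genes called in either direction, 4.77% higher and 5.2% lower. With no minimum fold 4 of the 10 passed, Atf5 being added, against 40.7% of all tested genes, and in 3 (Atf5, Trib3 and Sesn2) the groups did not overlap, against 21.6%. In p110aLKO, 2 were called higher and 1 lower, against 12.7% of all tested genes in either direction, 5.87% higher and 6.82% lower. With no minimum fold 5 of the 10 passed there, Sesn2 and Atf4 being added, against 41.3%, and neither addition held without p110aLKO_Fasted replicates 1 and 2 (Sesn2 0.20, adjusted p = 0.159, and Atf4 -0.31, adjusted p = 0.102). Without these arrays Trib3 rose by 0.95 (adjusted p = 0.00064) and Atf5 by 1.5 (adjusted p = 1.98e-08) in p110aLKO. With all arrays the groups did not overlap in 2 members, Atf5 and Trib3, against 22.1%. The median log2 fasting difference of the members was 0.18 in p110aLWT and 0.36 in p110aLKO, beside -0.01 and -0.02 over all tested genes.

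**Figure D1:**
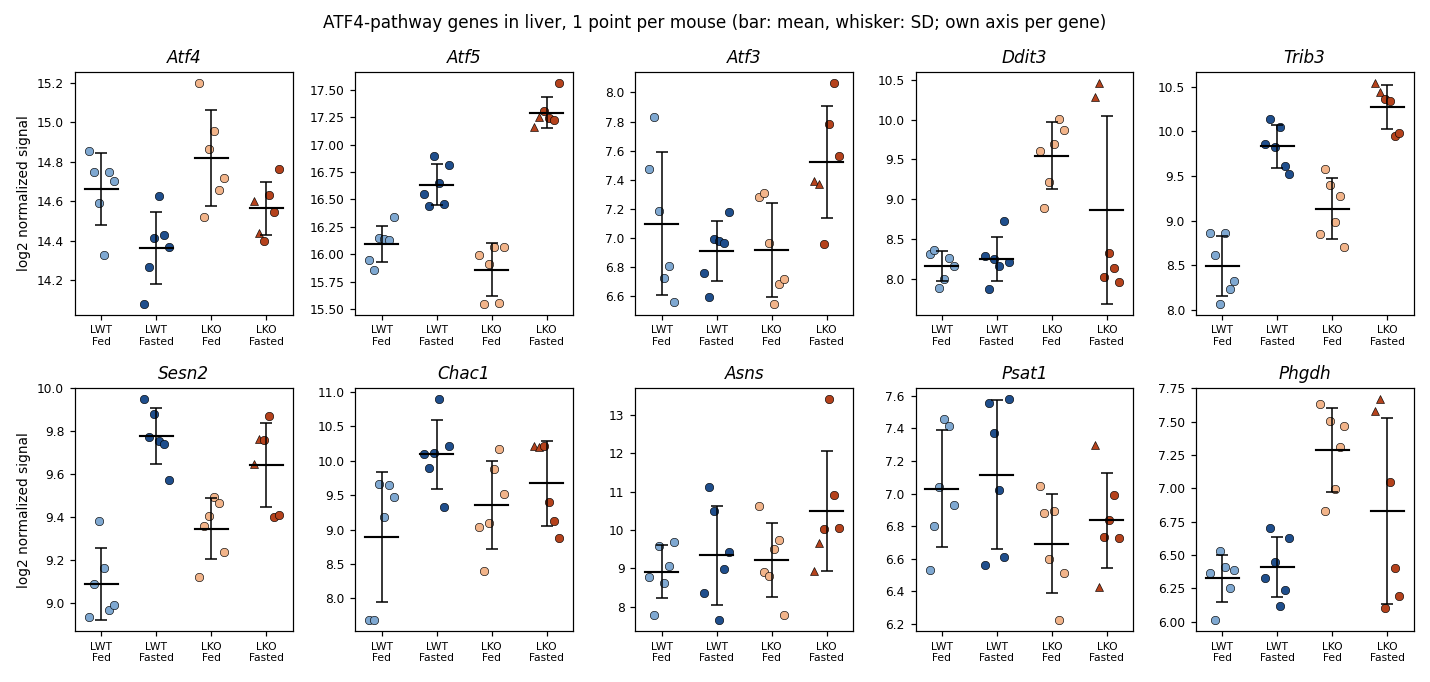
Log2 normalized signal of the 10 ATF4-pathway genes, 1 panel per gene with its own vertical axis. Each point is 1 mouse, bars are means and whiskers SD (n = 6), and triangles mark p110aLKO_Fasted replicates 1 and 2. Atf5 and Trib3 separate the fasted from the fed mice within each genotype, Asns scatters widely in all 4 groups, and the triangles lie far above the rest of their group for Ddit3.

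Atf4 encodes the master factor of the pathway, and its probe lies at chr15:80087902-80087961 (mm9, plus strand). Its signal ranged from 14.33 to 14.85 in p110aLWT_Fed (median 14.73) and from 14.08 to 14.63 in p110aLWT_Fasted (median 14.39). It ranged from 14.52 to 15.20 in p110aLKO_Fed (median 14.79) and from 14.40 to 14.76 in p110aLKO_Fasted (median 14.57). Fasted mice sat towards the lower end, but the groups overlapped in both genotypes. The log2 fasting difference was -0.27 in p110aLWT (SE 0.114, adjusted p = 0.061) and -0.32 in p110aLKO (SE 0.124, adjusted p = 0.0445), and neither reached 1.5-fold. A further Atf4 probe read -0.31 (adjusted p = 0.0389) and -0.20 (adjusted p = 0.216). The genotypes differed by 0.19 in fed mice (adjusted p = 0.300) and by 0.14 in fasted mice (adjusted p = 0.467), with 95% intervals from -0.05 to 0.43 and from -0.11 to 0.40.

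Atf5, a close relative of Atf4 that is abundant in liver and is also controlled by translation of its message, gave the clearest pattern of the 10 members. Its probe (chr7:52067627-52067686, mm9, minus strand) read 15.86 to 16.33 in p110aLWT_Fed, with a median of 16.13, and 16.44 to 16.89 in p110aLWT_Fasted, with a median of 16.60. It read 15.55 to 16.07 in p110aLKO_Fed, with a median of 15.95, and 17.16 to 17.56 in p110aLKO_Fasted, with a median of 17.25. Every fasted mouse was above every fed mouse of its genotype, and on this probe all 6 p110aLKO_Fasted mice were above all 6 p110aLWT_Fasted mice. The log2 fasting difference was 0.57 in p110aLWT (SE 0.104, adjusted p = 0.000137), just under the 1.5-fold limit, and 1.42 in p110aLKO (SE 0.114, adjusted p = 1.69e-09). Without any one of p110aLWT_Fed replicates 5 and 6 or p110aLWT_Fasted replicates 1, 4 and 5 the p110aLWT difference passed the limit, and over all 24 such fits it ran from 0.49 to 0.64. The fasting response in p110aLKO was larger by 0.85 on the log2 scale, or 1.81-fold (interaction, 95% interval 0.53 to 1.17, adjusted p = 0.00192). Beside this single member, 2.98% of all tested genes were called for the interaction, 1.5% above 0 and 1.47% below 0. With no minimum fold, Atf5 and Sesn2 passed, 2 of the 10, against 7.52%.

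The genotypes differed for Atf5 by 0.65 in fasted mice (SE 0.112, adjusted p = 0.000317), and by -0.20 in fed mice (adjusted p = 0.214), where the groups overlapped. Without p110aLWT_Fasted replicate 5 the fasted difference was 0.58 (adjusted p = 0.00128), which is under 1.5-fold. The further Atf5 probe, placed at chr7:52067718-52067777 (mm9), read 0.65 and 1.46 for fasting in p110aLWT and p110aLKO, 0.64 between the fasted genotypes and 0.81 for the interaction (adjusted p = 0.0069). On that probe the fasted groups overlapped, with the lowest p110aLKO_Fasted mouse at 15.51 and the highest p110aLWT_Fasted mouse at 15.75. Without p110aLKO_Fasted replicates 1 and 2, the fasted genotypes differed by 0.72 (adjusted p = 0.000752) and the interaction was 0.92 (adjusted p = 0.00108). With only 2 arrays per group on each of the 3 slides, the interaction within a slide ranged from 0.68 to 1.06, positive on each, and passed the test on none of them (adjusted p of 0.831, 0.249 and 0.123).

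Trib3 encodes a pseudokinase that binds Akt and ATF4 and acts as a brake on both. Its signal (chr2:152163161-152163220, mm9, minus strand) ran from 8.07 to 8.86 in p110aLWT_Fed (median 8.48) and from 9.52 to 10.14 in p110aLWT_Fasted (median 9.84). In p110aLKO_Fed it ran from 8.71 to 9.58 (median 9.13), and in p110aLKO_Fasted from 9.95 to 10.54 (median 10.35). No fasted mouse overlapped a fed mouse of its genotype. Trib3 rose by 1.22 (SE 0.162, adjusted p = 2.98e-06) in p110aLWT, which is 2.34-fold, and by 1.11 (SE 0.176, adjusted p = 2.55e-05) in p110aLKO, which is 2.17-fold. The difference between the 2 responses was -0.11, with a 95% interval from -0.61 to 0.39 (adjusted p = 0.834). In fed mice p110aLKO was 0.56 higher (SE 0.164, adjusted p = 0.0248, 1.47-fold), with overlap, and in fasted mice 0.45 higher (adjusted p = 0.0771). The fed difference passed the fold limit without any one of p110aLKO_Fed replicates 1, 4 and 6 or p110aLWT_Fed replicates 1 and 4, and over all 24 such fits it ran from 0.47 to 0.67 (adjusted p 0.0113 to 0.103).

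Sesn2 encodes sestrin 2, which binds leucine and restrains mTORC1. Its signal (chr4:132048858-132048917, mm9, minus strand) lay between 8.94 and 9.38 in p110aLWT_Fed (median 9.04) and between 9.57 and 9.95 in p110aLWT_Fasted (median 9.76). It lay between 9.12 and 9.50 in p110aLKO_Fed (median 9.38) and between 9.40 and 9.87 in p110aLKO_Fasted (median 9.70). The feeding states separated in p110aLWT and overlapped in p110aLKO. Sesn2 rose by 0.72 (SE 0.0894, adjusted p = 1.30e-06, 1.65-fold) in p110aLWT, and the difference was 0.28 (SE 0.0974, adjusted p = 0.0272, 1.21-fold) in p110aLKO. The response was smaller in p110aLKO by a log2 interaction of -0.44 (95% interval -0.72 to -0.17, adjusted p = 0.0448), a difference of 1.36-fold that is under the fold limit. Fed p110aLKO mice were 0.30 above fed p110aLWT mice (adjusted p = 0.0273, 1.23-fold), and fasted p110aLKO mice differed by -0.14 (adjusted p = 0.333). Without p110aLKO_Fasted replicates 1 and 2, the interaction was -0.51 (adjusted p = 0.0286), and leaving out single mice gave -0.52 to -0.37 (adjusted p 0.0195 to 0.110).

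Chac1 encodes an enzyme that degrades glutathione and is used as a marker of ATF4 output. Its signal (chr2:119179990-119180049, mm9, plus strand) spread from 7.69 to 9.67 in p110aLWT_Fed (median 9.33) and from 9.33 to 10.89 in p110aLWT_Fasted (median 10.11). It spread from 8.40 to 10.17 in p110aLKO_Fed (median 9.31) and from 8.87 to 10.22 in p110aLKO_Fasted (median 9.80). Fed and fasted mice overlapped in both genotypes, and 2 p110aLWT_Fed mice were far below the other 4 of that group. Chac1 rose by 1.32 (SE 0.383, adjusted p = 0.00817, 2.5-fold) in p110aLWT. In p110aLKO the difference was 0.45 (SE 0.417, adjusted p = 0.414), and 0.22 (adjusted p = 0.754) without replicates 1 and 2 of p110aLKO_Fasted. The responses of the 2 genotypes were not shown to differ, with an interaction of -0.87 (95% interval -2.04 to 0.31, adjusted p = 0.387). Within slides the p110aLWT difference was 2.42 and called on slide 2, which held both of the low p110aLWT_Fed mice (7.69 each). It was 0.39 on slide 1 (adjusted p = 0.601) and 0.78 on slide 3 (adjusted p = 0.369), where the call was lost.

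**Figure D2:**
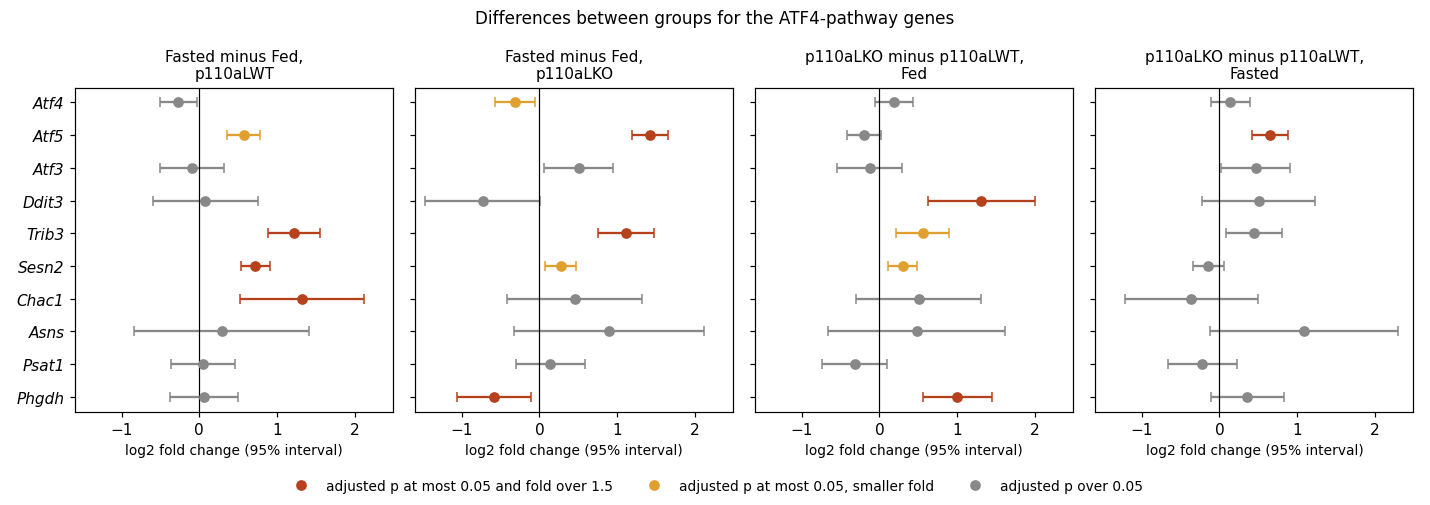
Log2 fold change of each ATF4-pathway gene in 4 comparisons, from the limma model, with 95% intervals. Points are coloured by whether the adjusted p was at most 0.05 and the fold over 1.5. Trib3 lies near 1.2 and 1.1 for fasting in both genotypes, Atf5 at 0.57 and 1.42, and Ddit3 and Phgdh stand out at 1.31 and 1.0 in the fed genotype comparison.

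Among fed mice, 2 of the 10 members were called higher in p110aLKO and 0 lower, and these were Ddit3 and Phgdh. Of all tested genes 3.84% were called in this comparison, 2.66% higher and 1.18% lower. In the same 2 members the groups did not overlap, against 8.62% of all tested genes. With no minimum fold 4 of the 10 members passed, the others being Trib3 and Sesn2, against 16.2% of all tested genes. Among fasted mice 1 of the 10 members, Atf5, was called higher and its groups did not overlap. Of all tested genes 4% were called there, 1.78% higher and 2.22% lower, 20% passed with no minimum fold, and 8.69% did not overlap. Both genotype comparisons share their arrays with the fasting comparisons.

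Ddit3 encodes CHOP, a factor downstream of ATF4 that is known for promoting cell death in prolonged stress. The array carries 2 probes for it that passed the brightness filter, and they read different stretches, printed here because the result depends on which is used.
Ddit3, Ensembl transcript, chr10:126731579-126731638, mm9, plus strand: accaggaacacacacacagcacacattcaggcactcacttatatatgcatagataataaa
Ddit3, RefSeq transcript, chr10:126732518-126732821, mm9, plus strand: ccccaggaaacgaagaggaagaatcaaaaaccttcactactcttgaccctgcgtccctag
The first is the brighter probe, which the array annotation assigns to an Ensembl transcript only, and the second is assigned to the RefSeq transcript of the gene and spans more genome than its 60 bases.

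The Ensembl-transcript probe read 7.88 to 8.35 in p110aLWT_Fed (median 8.20) and 7.87 to 8.73 in p110aLWT_Fasted (median 8.22). It read 8.89 to 10.01 in p110aLKO_Fed (median 9.65), above every fed control. In p110aLKO_Fasted it read 10.29 and 10.46 in replicates 1 and 2, and 7.96 to 8.32 in the other 4 mice, so this group held a high and a low set with none between. The fed genotype difference was 1.31 (SE 0.332, adjusted p = 0.00968, 2.48-fold). The fasting difference in p110aLKO was -0.73 (SE 0.357, adjusted p = 0.108). It was called without p110aLKO_Fasted replicate 1 alone (-1.15, adjusted p = 0.00384) and without replicate 2 alone (-1.17, adjusted p = 0.00222). It was also called as the mean of all Ddit3 probes (-0.73, adjusted p = 0.00845) and within slide 2 (-1.73, adjusted p = 0.00028), whereas within slide 1 it was 0.011. Without the 2 mice that stand apart it was -1.50 (adjusted p = 1.16e-06), and the interaction moved from -0.81 (adjusted p = 0.342) to -1.6 (adjusted p = 9.91e-05).

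The RefSeq-transcript probe gave another pattern. It read 8.06 to 8.89 in p110aLWT_Fed (median 8.40), 7.82 to 8.30 in p110aLWT_Fasted (median 8.26), 8.09 to 9.08 in p110aLKO_Fed (median 8.19) and 7.57 to 8.11 in p110aLKO_Fasted (median 7.73). The fed genotypes overlapped and differed by -0.11 (SE 0.140, adjusted p = 0.658). Ddit3 on this probe fell by 0.67 on the log2 scale with fasting in p110aLKO (SE 0.151, adjusted p = 0.00105), and it differed by -0.30 in p110aLWT (adjusted p = 0.0866) and by -0.48 between the fasted genotypes (adjusted p = 0.0273, under 1.5-fold). Neither Ddit3 probe was called higher with fasting in either genotype.

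**Figure D3:**
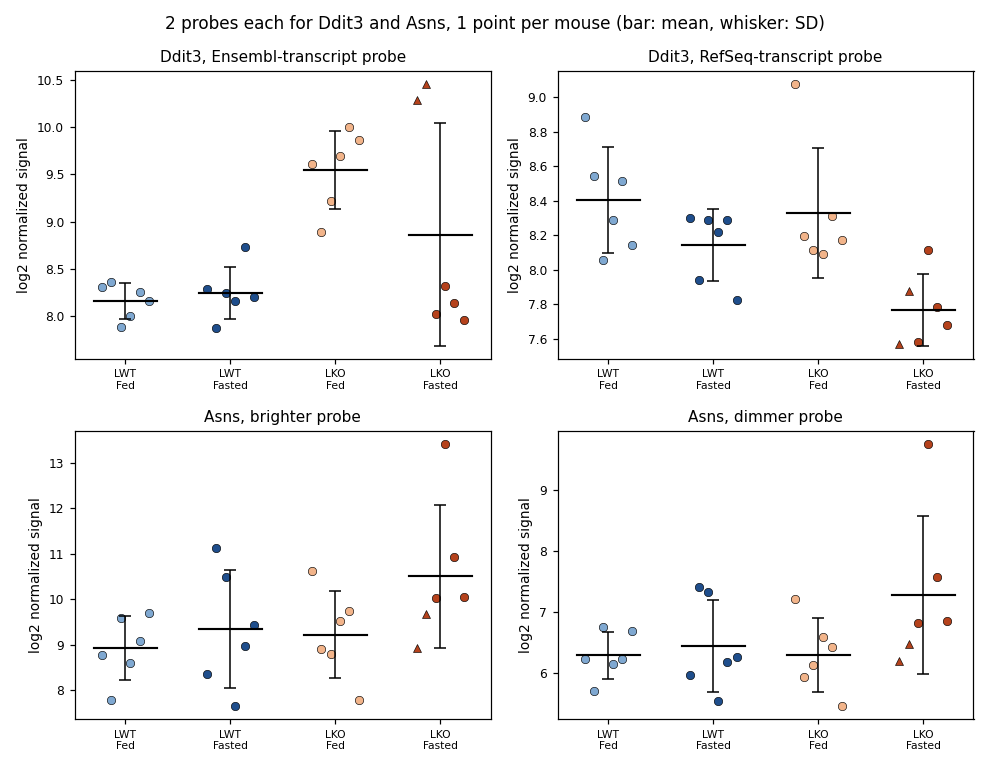
Log2 normalized signal of the 2 probes of Ddit3 (top) and the 2 probes of Asns (bottom), each panel with its own axis. Each point is 1 mouse, bars are means, whiskers SD (n = 6) and triangles p110aLKO_Fasted replicates 1 and 2. The Ddit3 probes differ, with the triangles at 10.29 and 10.46 on the first probe and at 7.57, the lowest of the group, and 7.88 on the second, whereas both Asns probes are highest in the same p110aLKO_Fasted mouse.

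Phgdh and Psat1 encode enzymes of the first steps of serine synthesis from a glycolytic intermediate. Phgdh (chr3:98117098-98117157, mm9, minus strand) was a dim probe that read 6.01 to 6.53 in p110aLWT_Fed (median 6.38) and 6.12 to 6.70 in p110aLWT_Fasted (median 6.39). It read 6.83 to 7.63 in p110aLKO_Fed (median 7.39), above all fed controls, and in p110aLKO_Fasted 7.58 and 7.67 in replicates 1 and 2 and 6.10 to 7.04 in the other 4. The array pair that separated for Ddit3 therefore separated here as well. The fed genotype difference was 1.0 (SE 0.213, adjusted p = 0.00275, 2.01-fold). The fasting difference in p110aLKO was -0.59 (SE 0.229, adjusted p = 0.0436), just past the fold limit, with overlapping groups. That call was kept in 9 of the 24 fits that left out 1 mouse, with values from -0.83 to -0.41. It was lost without any one of p110aLKO_Fasted replicates 3, 4, 5 and 6, p110aLKO_Fed replicates 1, 3, 5 and 6, p110aLWT_Fasted replicates 1, 3, 4, 5 and 6, or p110aLWT_Fed replicates 1 and 5. Without replicates 1 and 2 it was -1.0 (adjusted p = 0.000115), and the interaction was -1.07 (adjusted p = 0.00393) in place of -0.65 (adjusted p = 0.222).

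In p110aLKO_Fasted, 3 of the 10 members (Ddit3, Phgdh and Trib3) had replicates 1 and 2 both above the other 4 mice. For all genes with a value on each of these arrays the share was 11.9% of 21489. The gap exceeded 1.5-fold for 1 member, Ddit3, at 1.97 on the log2 scale, and for 2.05% of all genes. Without both arrays the fed genotype difference was 1.33 (adjusted p = 1.84e-06) for the Ensembl-transcript probe of Ddit3 and 1.02 (adjusted p = 4.74e-05) for Phgdh. Both arrays are of fasted mice, so the fed mice compared were the same, and the differences hardly moved from 1.31 and 1.0. The smaller adjusted p goes with the spread, which was estimated over all 4 groups, and is not added evidence from fed mice. Leaving out both arrays turned the fasted genotype difference from 0.50 to -0.27 for Ddit3 and from 0.36 to -0.05 for Phgdh, and none of these values passed the test.

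Psat1 (chr19:15979622-15979681, mm9, minus strand) was dim and no comparison called it. It read 6.53 to 7.46 in p110aLWT_Fed (median 6.99), 6.56 to 7.58 in p110aLWT_Fasted (median 7.19), 6.22 to 7.04 in p110aLKO_Fed (median 6.74) and 6.43 to 7.30 in p110aLKO_Fasted (median 6.78). All 4 groups overlapped. Its log2 fasting differences were 0.05 (95% interval -0.37 to 0.46) in p110aLWT and 0.14 (-0.31 to 0.59) in p110aLKO.

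Asns encodes asparagine synthetase, one of the most used readouts of ATF4. Its signal (chr6:7625171-7625228, mm9, minus strand) ranged from 7.78 to 9.69 in p110aLWT_Fed (median 8.92) and from 7.65 to 11.12 in p110aLWT_Fasted (median 9.20). It ranged from 7.77 to 10.62 in p110aLKO_Fed (median 9.21) and from 8.92 to 13.41 in p110aLKO_Fasted (median 10.04). The highest level, in p110aLKO_Fasted replicate 4, was 54.5-fold above the lowest, in a p110aLWT_Fasted mouse, and all groups overlapped. The log2 fasting difference was 0.29 in p110aLWT (SE 0.542, adjusted p = 0.714) and 0.90 in p110aLKO (SE 0.591, adjusted p = 0.237), and the fasted genotypes differed by 1.09 (95% interval -0.12 to 2.30, adjusted p = 0.210). These intervals are wide enough to hold differences of several fold. With 1 mouse left out at a time the fasted genotype difference ran from 0.66, without p110aLWT_Fasted replicate 4, to 1.44 (adjusted p from 0.110 to 0.476), and the fasting difference in p110aLKO from 0.61 to 1.26. Without p110aLKO_Fasted replicates 1 and 2 the p110aLKO fasting and the fasted genotype differences were 1.34 (adjusted p = 0.116) and 1.54 (adjusted p = 0.119). The dimmer Asns probe placed the same mouse highest, at 9.75, and no comparison with it passed the test.

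The members differed strongly in how far mice of 1 group lay apart. The pooled SD within groups was 1.18 for Asns, 0.70 for Chac1 and 0.65 for Ddit3, larger than for 99.9%, 99.2% and 99.0% of the tested genes, respectively. For Sesn2 it was 0.16, and for Atf5 and Atf4 0.19 each, beside a median of 0.16 over all tested genes.

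Atf3 encodes a stress-induced factor that is also an immediate early gene, switched on within minutes of many stimuli. Its signal (chr1:192994547-192994606, mm9, minus strand) ran from 6.56 to 7.83 in p110aLWT_Fed (median 7.0) and from 6.60 to 7.18 in p110aLWT_Fasted (median 6.97). It ran from 6.55 to 7.31 in p110aLKO_Fed (median 6.84) and from 6.96 to 8.07 in p110aLKO_Fasted (median 7.48). The highest levels were in p110aLKO_Fasted, with overlap. The log2 difference was -0.09 for fasting in p110aLWT (adjusted p = 0.758), 0.50 for fasting in p110aLKO (SE 0.216, adjusted p = 0.0668) and 0.47 between the fasted genotypes (SE 0.214, adjusted p = 0.135). Without p110aLKO_Fasted replicate 3, the last 2 became 0.73 (adjusted p = 0.00507) and 0.69 (adjusted p = 0.0159) and were called. They were also called without array weights, at 0.60 (adjusted p = 0.0141) and 0.61 (adjusted p = 0.0278), and the fasting difference within slide 3 (0.72, adjusted p = 0.0260). Without replicates 1 and 2 they were 0.56 (adjusted p = 0.0818) and 0.53 (adjusted p = 0.167).

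A list of 12 immediate early genes was examined beside Atf3. With fasting 4 of the 12 were called higher in p110aLWT and 8 in p110aLKO, where 4.77% and 5.87% of all tested genes were, among them Jun (1.48 and 2.17), Egr1 (1.34 and 2.07), Myc (1.58 and 1.59), Junb (1.1 and 0.95) and, in p110aLKO, Nr4a1 (1.26). Of the 12, 2, Ier3 (1.14) and Nr4a1 (1.35), were called higher in p110aLKO_Fasted than in p110aLWT_Fasted, beside 1.78% of all tested genes. For the interaction 1, Ier3 (0.95), was called, beside 1.5% called above 0. Between fed genotypes 0 were called, beside 3.84% in either direction. The summed log2 level of the 12 ranged from 13.2 to 13.6 in p110aLWT_Fed, 13.7 to 14.4 in p110aLWT_Fasted, 13.3 to 13.8 in p110aLKO_Fed and 14.1 to 15.4 in p110aLKO_Fasted. It was highest in p110aLKO_Fasted replicate 4, the mouse with the highest Asns. Their part in the levels of Atf3 and Asns was not tested.

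**Figure D4:**
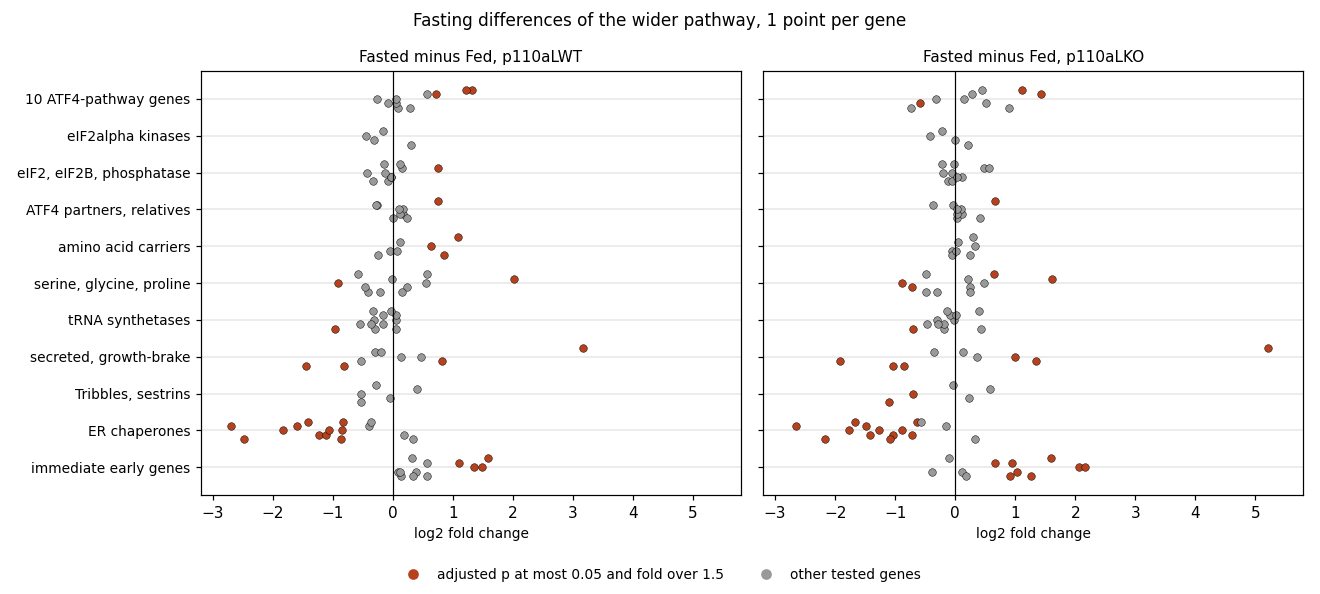
Log2 fasting difference in p110aLWT (left) and p110aLKO (right), 1 point per tested gene, for the 10 ATF4-pathway genes and 10 further gene lists. Called genes are coloured, and the vertical offset of points within a row has no meaning. The called genes of the ER chaperone list all lie below 0, down to -2.70 and -2.66, whereas the called ATF4-pathway genes lie above 0 except Phgdh in p110aLKO.

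Upstream of ATF4, none of the 4 eIF2alpha kinases was called in any comparison, and their median log2 fasting difference was -0.24 in p110aLWT and -0.11 in p110aLKO. Of all tested genes 9.97% and 12.7% were called for fasting in p110aLWT and p110aLKO. Between genotypes 3.84% were called in fed and 4% in fasted mice, and 2.98% for the interaction. The counts in this paragraph lie near these shares. Of 10 genes for eIF2, eIF2B and the eIF2alpha phosphatase, 1 was called higher with fasting in p110aLWT and 0 in p110aLKO. It was Ppp1r15a, the stress-induced phosphatase subunit that ends the response, at 0.75 (SE 0.089, adjusted p = 7.54e-07). In p110aLKO it was 0.57 higher (adjusted p = 6.41e-05), just under the fold limit, with no overlap of fed and fasted mice in either genotype and an interaction of -0.18 (adjusted p = 0.449). Of 9 partners and relatives of ATF4, Cebpb alone was called with fasting, at 0.74 in p110aLWT (adjusted p = 1.79e-05) and 0.66 in p110aLKO (adjusted p = 0.000172). Cebpb encodes a C/EBP factor that can pair with ATF4.

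Amino acid carriers known as ATF4 targets bring glycine and other neutral amino acids into cells. With fasting 3 of the 7 tested carriers were called higher in p110aLWT and 0 in p110aLKO, beside 4.77% and 5.87% of all tested genes: the glycine carrier Slc6a9 (1.08, adjusted p = 1.01e-06), the neutral amino acid carriers Slc1a4 (0.85, adjusted p = 0.000292) and Slc38a2 (0.64, adjusted p = 0.00134). For Slc1a4 and Slc38a2 the p110aLKO differences were 0.24 (adjusted p = 0.314) and 0.33 (adjusted p = 0.109), and their responses were not shown to differ between genotypes (interaction -0.61, adjusted p = 0.139, and -0.31, adjusted p = 0.423). Slc6a9 was lower in p110aLKO than in p110aLWT by -0.71 when fed and -1.49 when fasted, with an interaction of -0.79, and it was the only carrier called in each of these 3 comparisons. Of all tested genes 1.18%, 2.22% and 1.47% were called lower there. The highest genotype differences among the 7 carriers were 0.53 in fed and 0.53 in fasted mice, and neither was called. Of 12 cytosolic tRNA synthetases, a family that ATF4 is known to induce, 0 were called higher with fasting and 1, Wars, was called lower in both genotypes (-0.97 and -0.70). Of all tested genes 4.77% and 5.87% were called higher and 5.2% and 6.82% lower in p110aLWT and p110aLKO. The counts of the 12 lie near these shares.

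Other amino acid enzymes were called in small numbers. Of 11 genes of serine, glycine and proline synthesis and linked steps, fasting gave 1 call higher and 1 lower in p110aLWT, and 2 higher and 2 lower in p110aLKO, where 9.97% and 12.7% of all tested genes were called in either direction. Got1, a transaminase that also serves gluconeogenesis, rose by 2.01 and 1.61 and was called higher in p110aLKO when fed (0.60, adjusted p = 0.0418), while Psph, which completes serine synthesis after Phgdh and Psat1, was lower by -0.91 and -0.89. In p110aLKO the transaminase gene Gpt2 (0.64) and the folate enzyme gene Mthfd2 (-0.72) were the other calls. Among the 5 relatives of Trib3, Sesn2 and Chac1, none was called higher with fasting, and the highest values were those of Trib1, 0.39 in p110aLWT and 0.58 in p110aLKO. Chac2 (-1.10) and Sesn3 (-0.71) were called lower in p110aLKO, beside -0.54 (adjusted p = 1.83e-05) and -0.53 (adjusted p = 9.02e-05) in p110aLWT, under 1.5-fold. Chac2 was also called lower in p110aLKO between the fasted genotypes (-0.67, adjusted p = 2.16e-05).

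Of 9 tested secreted or growth-restraining ATF4 targets, 2 were called higher and 2 lower with fasting in p110aLWT, and 3 higher and 3 lower in p110aLKO. Over all tested genes the shares called higher and lower were 4.77% and 5.2% in p110aLWT, and 5.87% and 6.82% in p110aLKO. Fgf21, a fasting hormone that is also induced by PPARalpha, rose by 3.16 (SE 0.254, adjusted p = 2.90e-09) in p110aLWT and by 5.21 (SE 0.277, adjusted p = 3.82e-12) in p110aLKO. p110aLKO differed from p110aLWT by -1.18 in fed mice (adjusted p = 0.00339) and by 0.87 in fasted mice (adjusted p = 0.0289), and the interaction was 2.05 (adjusted p = 0.00216). Gdf15, a stress hormone, rose by 0.81 and 1.35. Sqstm1, an autophagy receptor, rose by 1.0 in p110aLKO and was 0.46 higher in p110aLWT, under 1.5-fold. Called lower in both genotypes were Gadd45a, a growth arrest gene (-1.45 and -1.04), and Bbc3, a promoter of apoptosis (-0.82 and -0.85). Ddit4, an inhibitor of mTORC1 like Sesn2, was called lower with fasting in p110aLKO (-1.91, beside -0.53 with adjusted p = 0.184 in p110aLWT). It differed by -1.92 between the fasted genotypes (adjusted p = 0.000383), where Sesn2 differed by -0.14.

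Most of 15 listed genes of the ATF6 and XBP1 arms of the unfolded protein response, mainly ER chaperones and largely separate from ATF4, were called lower with fasting. Of the 15 genes 11 were called lower with fasting in p110aLWT and 12 in p110aLKO, with 0 higher in either, beside 5.2% and 6.82% of all tested genes called lower. Their median difference was -1.07 and -1.09, where the ATF4-pathway members had 0.18 and 0.36. Hspa5, the main ER chaperone BiP, fell from a mean of 16.36 (SD 0.32) to 14.82 (SD 0.28) in p110aLWT and from 16.53 (SD 0.34) to 15.05 (SD 0.39) in p110aLKO, n = 6 each. The lowest differences were those of Sdf2l1 (-2.70 and -2.66), Manf (-2.47 and -2.17) and Creld2 (-1.83 and -1.77), followed in p110aLKO by Hyou1 (-1.67). The genes not called were Atf6, Dnajb9, Dnajc3 and Herpud1 in p110aLWT, and Atf6, Dnajb9 and Xbp1 in p110aLKO. Atf6, the sensor itself and not a chaperone, differed by 0.33 (adjusted p = 0.000442) and 0.32 (adjusted p = 0.00109), under 1.5-fold. Herpud1, a gene of ER-associated degradation, differed by 0.18 in p110aLWT (adjusted p = 0.398) and fell by 0.73 in p110aLKO (adjusted p = 0.00203). It was the 1 gene of the list called for the interaction (-0.91, adjusted p = 0.0242) and between the fasted genotypes (-1.07, adjusted p = 0.000182), and 0 were called between the fed genotypes. In the same livers Trib3 rose by 1.22 and 1.11.

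Markers of liver cell types were checked because RNA of whole liver was measured, in which fewer cells of a type and less RNA per cell cannot be told apart. Of all tested genes 4.77% were called higher and 5.2% lower with fasting in p110aLWT, and 5.87% and 6.82% in p110aLKO. Between genotypes 2.66% were called higher and 1.18% lower in fed mice, and 1.78% and 2.22% in fasted mice. For the interaction 2.98% were called. None of 7 hepatocyte markers was called in any comparison, and their summed log2 level stayed between 20.4 and 20.6 on all arrays. Of 9 Kupffer cell markers 0 were called in any comparison. Their summed level was 16.51 in p110aLKO_Fasted replicate 6, the mouse with the highest Atf5, and 14.44 to 15.42 in the rest of that group. It was no higher than 15.75 in the other groups. Between the fasted genotypes the highest marker difference was 1.46 and the median -0.01. Of 10 pancreas markers, which bear on tissue beside the liver that expresses stress genes strongly, 4 passed the brightness filter, and their summed level was lowest in p110aLKO_Fasted (12.0 to 12.7, with 12.8 to 13.7 in p110aLWT_Fasted and 13.02 to 13.94 in the fed groups). Of these markers Cela2a was called higher in p110aLKO (0.82 fed and 0.64 fasted), while Cela1 was called lower in fasted p110aLKO mice (-0.76). With fasting both were called lower, Cela1 by -0.60 in p110aLWT and -1.04 in p110aLKO, and Cela2a by -0.81 and -0.98. Of 7 stellate cell markers 3 were called lower with fasting in each genotype. Of 5 cholangiocyte markers 1, Spp1, was called lower in p110aLKO in both feeding states (-1.5 fed and -2.11 fasted). The summed level of the 5 did not overlap between genotypes within a feeding state, at 11.03 to 11.74 in p110aLWT_Fed, 9.61 to 10.84 in p110aLKO_Fed, 10.75 to 11.10 in p110aLWT_Fasted and 8.99 to 10.20 in p110aLKO_Fasted. Such a sum follows the brightest markers, and the median genotype difference of the 5 was -0.40 in fed and -0.42 in fasted mice. With fasting, 1 of these 5 was called lower in p110aLWT and 2 in p110aLKO. Of 5 erythroid markers 1, Alas2, was called lower in p110aLKO in both states (-0.80 and -0.83), and the median genotype difference of the 5 was -0.33 in fed and 0.35 in fasted mice. Of 7 endothelial markers 1, Lyve1, was called lower in fed p110aLKO mice (-0.88). The part of these cell types in the levels of the members was not tested.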

How the data were processed

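The authors labelled liver RNA of 24 mice with Cy3, put it on 1-colour Agilent arrays of 60-base probes and read them with Agilent Feature Extraction 10.10.1.1, per the submitters' processing notes. The deposited scanner files hold spot intensity per array, unscaled. The authors also deposited a matrix of 32595 probes as log2 values, in their description filtered, corrected for washing bath and quantile normalized. It was used as an alternative. Its order of probes on each array matched the median signal before any bath correction (lowest Spearman rho 0.999996), so this alternative may not test bath-corrected values. The bath is not given in the sources used here.

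Control spots and outlier spots were left out, which left 90 missing probe values, and no spot was saturated. Probes well above background on at least 5 of 6 arrays of a group were kept (32197 of 56605 probes, 21495 genes). Their median signal was log2 transformed and quantile normalized. limma 3.58.1 (R 4.3.3; lmFit, arrayWeights, eBayes) fitted group and slide to all arrays. The 3 slides hold 8 arrays each, 2 of every group. P-values, all two-sided, were Benjamini-Hochberg adjusted over the kept probes, and a gene was represented by its brightest probe. Means are raw, whereas fold changes are adjusted for slide and weighted. The fit was checked on simulated data. Positions are those of the files (mm9), and promoters are from RefSeq. Summed list levels are the log2 of added signals.

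The members and lists were chosen with earlier results of these data known. The text describes all 10 members and, from each list and comparison, up to 4 called genes, those with the largest differences. Genes of the lists named beyond these were chosen after their values were seen. Alternatives were other signals and scalings, no filter, no weights, the mean of all probes, slides apart, a replicate block and leaving out mice. Separate mice were the replicates, and 6 arrays per group limit the precision. Replicate numbers gave no clear sign of pairing (4 of 36 same-number correlations, not adjusted for slide, were over 0.1). This check cannot exclude that mice were paired.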

Additional observations from a re-analysis of the deposited data

Results flagged for a closer look

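Atf5 in p110aLKO_Fasted replicate 6 read 17.56, farther above the other 5 mice of its group than the range of that group allows by Dixon's test. This was 1 of 40 such checks over the 10 members and 4 groups, and chance gives about 1 in 20. The log2 interaction of genotype and fasting passed an adjusted p of 0.05 for 2 of the 10 members. It was 0.85 for Atf5, where fasting made a larger difference in p110aLKO, and -0.44 for Sesn2, where it made a smaller one.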

How the results depend on the processing

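Across 39 alternatives (38 for the interaction), the fasting rise of Atf5 in p110aLKO passed the test in 39, that of Trib3 in 39 for p110aLWT and 38 for p110aLKO, and that of Sesn2 in p110aLWT in 38. The Atf5 interaction passed in 35, and failed within each slide and nowhere else. The Phgdh fasting call in p110aLKO held in 17 of 39 and was lost, among others, with no filter on dim probes (-0.48), no array weights (-0.46) and the compared groups alone (-0.54). Scaling to the 75th percentile moved the median fasting difference of all genes in p110aLKO to -0.11.

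The number of members called for fasting in p110aLWT was 3, with 1 within slide 1 and 3 to 4 when single mice were left out. For fasting in p110aLKO it was 3, with 5 when no minimum fold was set, 1 within slide 1 and 2 to 4 without single mice. For the fed genotypes it was 2, with 4 when no minimum fold was set, 0 within slides 1 and 3 and 2 to 3 without single mice. For the fasted genotypes it was 1, with 2 without array weights (Atf3 and Atf5), 0 within slides 1 and 2, 0 without p110aLWT_Fasted replicate 5, 2 without p110aLKO_Fasted replicate 3 and 0 to 2 over all single mice. For the interaction it was 1, with 2 when no minimum fold was set, 0 within slides 1 and 3, 1 within slide 2 (Ddit3 in place of Atf5), 1 to 2 without single mice (Phgdh added without p110aLKO_Fasted replicate 1, Ddit3 without replicate 2) and 3 without both. A fit within a slide rests on 2 arrays per group. With the replicate number as a block, the counts of members called were 3, 2, 2, 1 and 1 in the same order, and Phgdh was the call lost (-0.50, adjusted p = 0.0722).

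Of the differences that turned their sign, Phgdh for fasting in p110aLKO alone was called over all slides. None was called where it had turned. On the side of the fit to all slides, Chac1 was called between fed genotypes within slide 2 (1.92, adjusted p = 0.0436). Ddit3 was called there for fasting in p110aLKO (-1.73, adjusted p = 0.00028) and for the interaction (-1.66, adjusted p = 0.00833). As the mean of its probes Ddit3 was also called for fasting in p110aLKO (-0.73, adjusted p = 0.00845). The Sesn2 interaction, which turned within slide 1, had passed the adjusted p but not the fold over all slides. The cause was not tested. Fasting in p110aLWT read 0.33 for Atf3, -0.83 for Asns, -0.22 for Phgdh, 0.014 for Atf4 and -0.38 for Psat1 within slide 3, and for Ddit3 -0.027 within slide 1, -0.070 within slide 2 and -0.11 as the mean of its probes. Fasting in p110aLKO read 0.21 for Phgdh, 0.011 for Ddit3 and -0.065 for Psat1 within slide 1, and -0.023 for Psat1 at the 75th percentile. The fed genotypes read 0.016 for Atf3, -0.99 for Asns, -0.70 for Chac1 and -0.052 for Atf4 within slide 1 and 0.11 for Atf3 within slide 3. The fasted genotypes read -0.14 for Phgdh and -0.18 for Ddit3 within slide 2, -0.052 and -0.27 without both arrays that stand apart, -0.0088 for Ddit3 as the mean of its probes, 0.20 for Psat1 within slide 3 and 0.15 for Sesn2 within slide 1. The interaction read 0.45 for Chac1, 0.039 for Ddit3, 0.27 for Atf4, -0.41 for Psat1 and 0.023 for Sesn2 within slide 1, -0.85 for Asns, 0.10 for Atf4 and -0.074 for Psat1 within slide 2, 0.043 for Atf4 without array weights and 0.040 as the mean of its probes, and -0.045 for Psat1 at the 75th percentile. Leaving out single mice turned, for fasting in p110aLWT, Atf3 (-0.18 to 0.019), Asns (-0.070 to 0.72), Phgdh (-0.020 to 0.14), Ddit3 (-0.031 to 0.13) and Psat1 (-0.10 to 0.18), and for the interaction Atf4 (-0.11 to 0.070), Psat1 (-0.038 to 0.27) and Trib3 (-0.22 to 0.0095).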
